A study of Mus musculus with 11 samples.

Results

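The genes described here encode 9 enzymes or enzyme subunits that run the tricarboxylic acid (TCA) cycle in the mitochondrial matrix: Cs, Idh2, Idh3a, Idh3b, Ogdh, Sucla2, Suclg1, Fh1 and Mdh2. They were chosen by gene symbol, and each of the 9 had 1 probe set among the 19505 gene symbols of the array. Their transcripts were measured in 11 whole mammary tumors that grew after E0771 mouse mammary carcinoma cells had been placed in the fourth mammary fat pad of female C57BL6J mice. Before injection the cells had been transduced with 1 of 2 lentiviral shRNAs against Pcx, the pyruvate carboxylase gene, named shPC25 (3 tumors) and shPC28 (4 tumors), or with a scrambled shRNA, named scram (4 tumors). The mice received no drug, and each tumor counted as 1 replicate. All sample titles carry the letters LFD, which the labels do not spell out. The methods name 1 diet, from Research Diets, for the C57BL6J mice of the E0771 studies. The transduced cells of a group were shared by its tumors, so the spread between tumors does not cover the spread between separate transductions. Because host and carcinoma cells were measured together, fewer cells of a type and less RNA per cell cannot be told apart.

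Citrate synthase (Cs) joins acetyl-CoA to oxaloacetate at the entry of the cycle. The isocitrate dehydrogenases (Idh3a, Idh3b and Idh3g for the NAD-linked complex, Idh2 for the NADP-linked enzyme) and Ogdh, the dehydrogenase of 2-oxoglutarate, carry out the oxidative decarboxylations. Succinyl-CoA synthetase pairs the alpha subunit Suclg1 with an ATP-linked (Sucla2) or a GTP-linked (Suclg2) beta subunit, and Fh1 and Mdh2 turn fumarate through malate back into oxaloacetate. Pyruvate carboxylase supplies oxaloacetate from pyruvate, so the comparison asked whether transcripts of the cycle differed in tumors whose cells carried an shRNA against it.

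Over the series, the 22206 probe sets had log2 signals from 1.43 to 18.7, the array medians lay between 5.89 and 6.08, and any 2 arrays correlated at r between 0.987 and 0.994. The targeted gene, Pcx, read 3.19, 3.42 and 3.12 in shPC25 tumors and 3.76, 2.90, 2.32 and 3.44 in shPC28 tumors, against 3.41, 3.89, 4.48 and 4.13 in scram tumors. The shPC and scram values overlapped, and the mean of 3.46 lay below 4.29, the 95th percentile of 1080 olfactory receptor probe sets, which serve here as a guide to unexpressed genes. At this signal Pcx gives a weak check of the labels. Of the markers of the carcinoma and mammary epithelium, 6 of 6 were measured, and their mean log2 signal ran from 5.55 to 7.92 in shPC tumors and from 6.54 to 7.53 in scram tumors.

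Of the 9 members, 8 gave a log2 signal above the median of all probe sets (5.97), with means from 11.8 for Fh1 to 15.41 for Cs. Sucla2 averaged 4.64, which 2.41% of the olfactory receptor probe sets also reached, so its probe set stood close to background. The members varied little: the median within-group SD was 0.141 log2 units over the members, against 0.309 over all probe sets and 0.263 over the probe sets brighter than the median. The exception among the bright members was Idh2, with a pooled within-group SD of 0.40. The plot of the values by tumor shows this clustering. No background matched to the signal of the members is given, so their small spread is not set apart from that of equally bright genes.

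**Figure D1:**
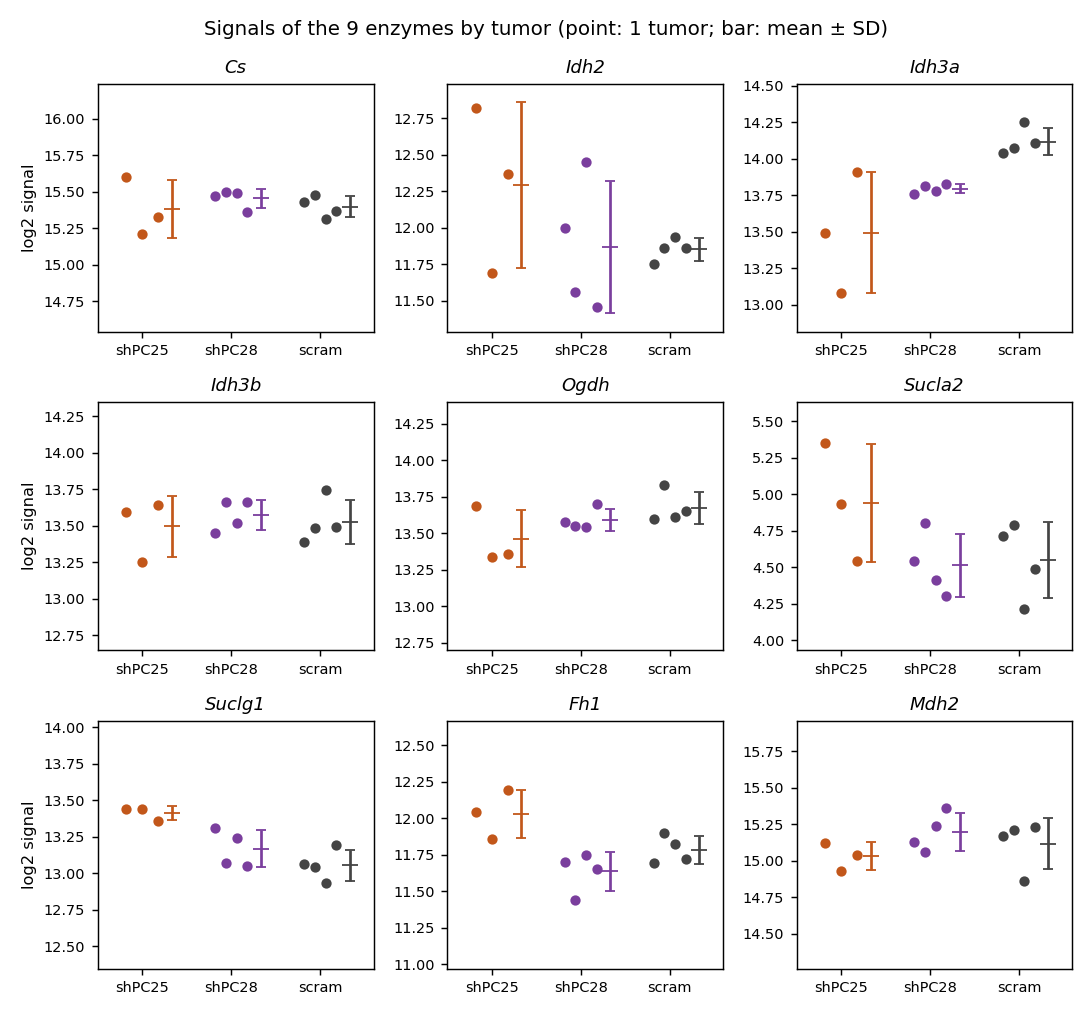
Log2 signal of each of the 9 TCA cycle genes in every tumor, grouped as shPC25, shPC28 and scram from left to right; points are tumors, bars are the mean and SD, and all panels span the same number of log2 units. Idh3a is lower in all 7 shPC tumors than in any of the 4 scram tumors, and Idh2 spreads more in shPC tumors than in scram tumors.

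No member passed the threshold of 0.05 on the adjusted p of limma when the shPC groups were jointly set against scram (0 of 9, where 0.0135% of all probe sets passed). At an unadjusted p under 0.05, 1 of 9 members passed (Idh3a), against 9.11% of all probe sets. A pooled-variance comparison of the groups, an alternative chosen here, likewise called 0 members after adjustment. Of the members 3 were lower and 6 higher by any amount, with a median difference of 0.02 log2 units, and the median over all probe sets was also 0.02. With each shRNA taken alone, limma called 0 of 9 members in shPC25 tumors (0% of all probe sets) and 0 of 9 in shPC28 tumors (0%). At an unadjusted p under 0.05 these comparisons had 2 of 9 members (8.45% of all probe sets) and 0 of 9 (7.41%). The 2 comparisons share the scram tumors, so their values are given side by side and not correlated.

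**Figure D2:**
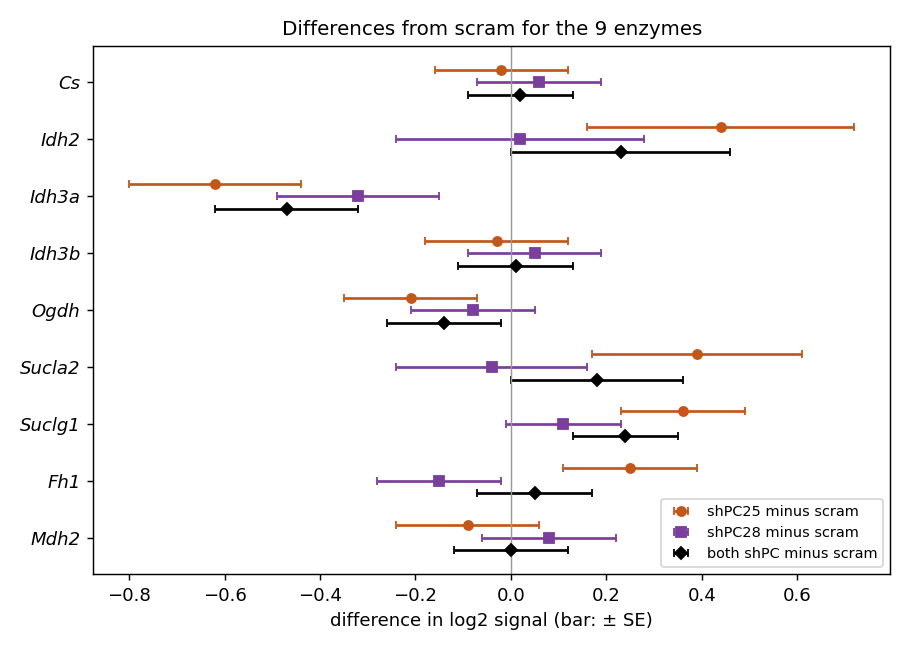
Difference in log2 signal from scram for the 9 TCA cycle genes, in the order shPC25, shPC28 and both shPC groups from top to bottom for each gene; bars are the standard errors of limma. Idh3a lies at -0.62, -0.32 and -0.47 log2 units, and Suclg1 at 0.36, 0.11 and 0.24.

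Idh3a, the catalytic alpha subunit of the NAD-linked isocitrate dehydrogenase, was the member that separated the groups. Its log2 signal was 13.49, 13.08 and 13.91 in shPC25 tumors and 13.76, 13.81, 13.78 and 13.83 in shPC28 tumors, against 14.04, 14.07, 14.25 and 14.11 in scram tumors. Every shPC tumor lay below every scram tumor, a pattern found in this direction in 1 of 9 members and 0.703% of all probe sets, and in the other direction in 0 of 9 members and 0.842% of all probe sets. The difference was -0.47 ± 0.15 log2 units (SE), with an adjusted p of 0.337 by limma, and -0.45 with an exact two-sided permutation p of 0.0152 when all 7 shPC tumors were weighted equally. The shPC25 tumors differed from scram by -0.62 ± 0.18 (adjusted p = 0.385) and the shPC28 tumors by -0.32 ± 0.17 (adjusted p = 0.726). Both gave an exact permutation p of 0.0286, the smallest that groups of this size allow. Idh3a was the 1 of 9 members with every shPC25 tumor below every scram tumor (3.4% of all probe sets) and the 1 of 9 with every shPC28 tumor below every scram tumor (2.12%).

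Idh3b, a regulatory subunit of the same complex, read 13.59, 13.25 and 13.64 in shPC25 tumors and 13.45, 13.66, 13.52 and 13.66 in shPC28 tumors, against 13.39, 13.48, 13.74 and 13.49 in scram tumors. The groups overlapped, and the difference was 0.01 ± 0.12 (adjusted p = 0.993). Idh3g, the other regulatory subunit, which was not among the 9 members, differed by 0.05 ± 0.11 (adjusted p = 0.928).

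Set against its partners within each tumor, Idh3a was lower in the shPC groups. The log2 signal of Idh3a minus that of Idh3b was -0.10, -0.17 and 0.27 in shPC25 tumors and 0.31, 0.15, 0.26 and 0.17 in shPC28 tumors, against 0.65, 0.59, 0.51 and 0.62 in scram tumors. The 2 sets of values did not overlap. Their means were 0.13 ± 0.19 in shPC tumors (SD, n = 7) and 0.59 ± 0.06 in scram tumors (SD, n = 4), with an exact two-sided permutation p of 0.00303, the smallest that 330 splits allow, and 0.0106 after adjustment over the 7 gene pairs examined. Idh3a minus Idh3g averaged -2.58 ± 0.23 in shPC tumors (SD, n = 7) and -2.07 ± 0.17 in scram tumors (SD, n = 4), again without overlap and with the same exact p and adjusted p. Idh3b minus Idh3g differed by -0.05, with an exact permutation p of 0.661. Both pairs without overlap contain Idh3a, whose own values already separated the groups. They are therefore not separate evidence from that result or from each other. Adjusted over all probe sets, limma gave Idh3a itself a p of 0.337. These are differences in array signal and show unequal change of the probe sets, not the ratio of the subunits.

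**Figure D3:**
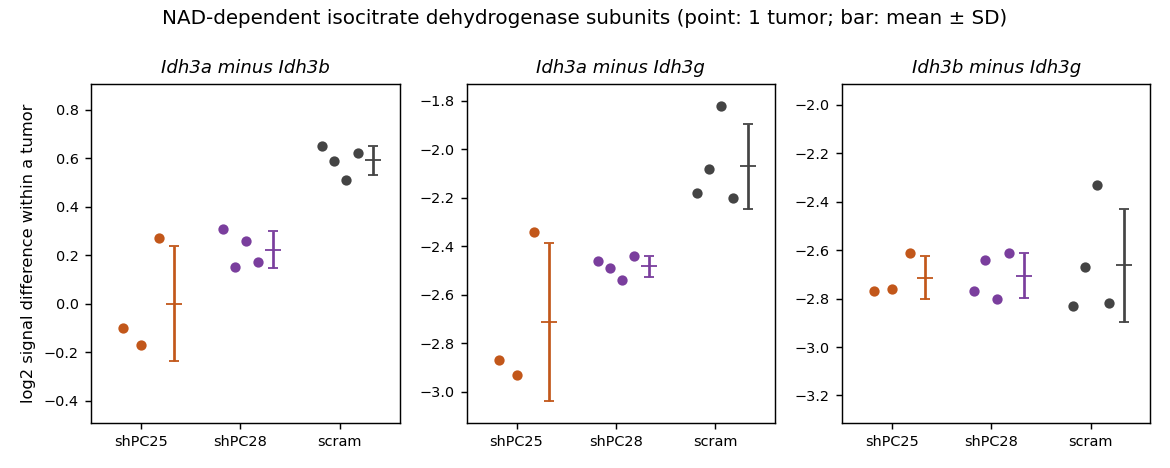
Within-tumor difference in log2 signal between subunit transcripts of the NAD-linked isocitrate dehydrogenase, by tumor, with shPC25, shPC28 and scram from left to right; bars are the mean and SD. Idh3a minus Idh3b averages 0.13 in the 7 shPC tumors and 0.59 in the 4 scram tumors, and Idh3b minus Idh3g differs by -0.05.

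With shPC25 or shPC28 alone, Idh3a minus Idh3b differed from scram by -0.59 and -0.37, each with an exact permutation p of 0.0286 and an adjusted p of 0.10, which is above the threshold. Without scram replicate 3, the difference over both shPC groups was -0.49 (exact permutation test, adjusted p = 0.0583) for Idh3a minus Idh3b and -0.43 (adjusted p = 0.117) for Idh3a minus Idh3g. The shPC and scram values still did not overlap in either pair. The 120 splits left allow no p below 0.00833, which Idh3a minus Idh3b reached, while Idh3a minus Idh3g gave an exact p of 0.0333. Without scram replicate 4 and shPC28 replicate 4 together, a choice made after seeing the data, the differences were -0.46 and -0.58, again without overlap. The exact p was 0.0238 and 0.0119, where 84 splits allow no p below 0.0119, and the adjusted p was 0.0556 for each.

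Genes beside Idh3a on chromosome 9 were lower as well. The 20 expressed genes on either side of it, placed by RefSeq gene order and examined after the Idh3a values were seen, were lower in shPC than in scram tumors for 37 of 40 genes, with a median difference of -0.41 log2 units. Over all 10033 placed genes, 48.1% were lower and the median was 0.01. Among the 40 neighbours, 18 had an unadjusted p under 0.05 (9.11% of all probe sets), 0 passed the adjusted threshold of limma, and 3 had every shPC tumor below every scram tumor (0.917% of the placed genes). The 9.11% includes dim probe sets, which are not among the placed genes. Around the other 8 members, the median over the 40 neighbours ran from -0.06 to 0.15, and between 8 (Mdh2) and 25 (Fh1) of the 40 were lower. The Mdh2 window was thus uneven in the other direction. Its median by tumor was 0.01 to 0.31 in shPC tumors and -0.12 to 0.16 in scram tumors, with overlap.

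The neighbours included Cul5, a scaffold of ubiquitin ligases (-0.54 ± 0.18), Ireb2, an iron-responsive RNA-binding protein (-0.58 ± 0.18), Psma4, a proteasome subunit (-0.47 ± 0.15), and 2 further genes of mitochondrial metabolism, Etfa, which passes electrons from flavoprotein dehydrogenases (-0.47 ± 0.17), and Acat1, a thiolase of ketone body and isoleucine breakdown (-0.30 ± 0.18). None of these differences passed the adjusted threshold. In blocks of 10 expressed genes, the median difference ran from -0.60 to -0.25 in the 9 blocks between the 40th gene before and the 50th gene after Idh3a. It ran from -0.04 to 0.11 in the 4 blocks before that stretch and from 0.00 to 0.07 in the 3 blocks after it.

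**Figure D4:**
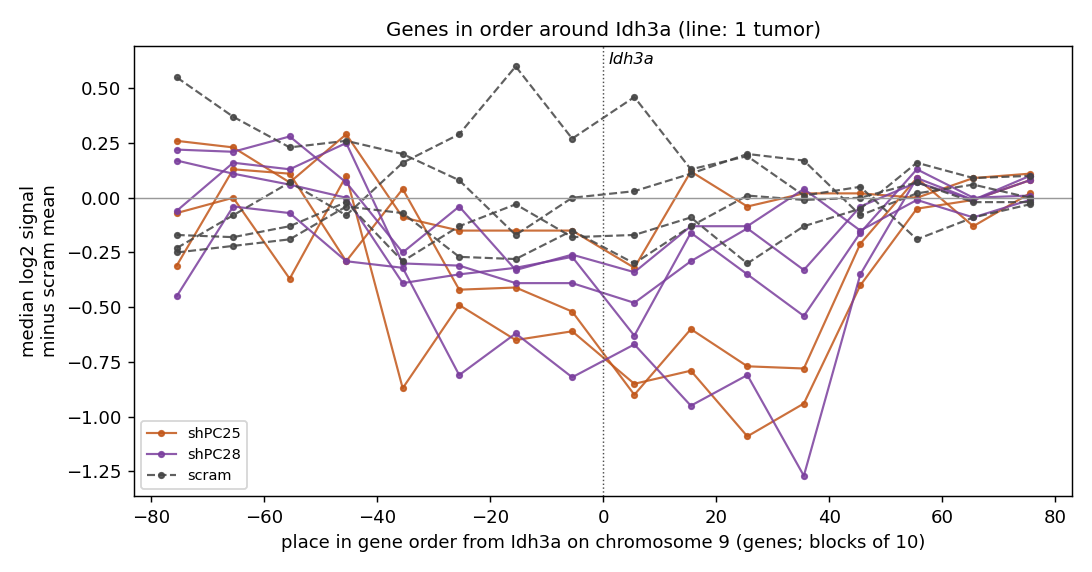
Median log2 signal, relative to the scram mean of each gene, of blocks of 10 expressed genes on either side of Idh3a on chromosome 9, against their place in gene order; each line is 1 tumor, solid for shPC25 and shPC28 and dashed for scram. In the 10 genes just after Idh3a the 7 shPC tumors lie between -0.90 and -0.32 and the 4 scram tumors between -0.30 and 0.46, and the lines come together at the outer right.

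By tumor, the median of the 40 neighbours relative to their scram means was -0.60, -0.69 and -0.15 in shPC25 tumors and -0.73, -0.29, -0.32 and -0.39 in shPC28 tumors, against -0.15, -0.23, 0.40 and 0.01 in scram tumors. Idh3a relative to its own scram mean was -0.63, -1.04 and -0.21 in shPC25 tumors and -0.36, -0.31, -0.34 and -0.29 in shPC28 tumors, against -0.08, -0.05, 0.13 and -0.01 in scram tumors. After the neighbour median was subtracted, Idh3a stood at -0.03, -0.35 and -0.06 in shPC25 tumors and at 0.37, -0.02, -0.02 and 0.10 in shPC28 tumors, against 0.08, 0.19, -0.27 and -0.02 in scram tumors. The neighbour median was lowest in shPC28 replicate 1 and highest in scram replicate 3, and the shPC and scram ranges overlapped through shPC25 replicate 3. The groups also overlapped once it was subtracted, and the part of the neighbourhood in the Idh3a result was not tested.

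Some marker lists of host cells stood lower in shPC tumors. In the macrophage, fibroblast and neutrophil lists 0 genes passed the adjusted threshold of limma (0.0135% of all probe sets). In each of these lists 6 of 7 genes had an unadjusted limma p under 0.05 (9.11% of all probe sets). The mean log2 signal of the macrophage markers (7 of 8 measured, all 7 lower in shPC tumors by any amount) was 11.26 to 12.17 in shPC tumors and 12.20 to 12.69 in scram tumors, without overlap. How often means of other gene sets of this size do not overlap is not given here. The fibroblast markers (7 of 8 measured, all 7 lower) stood at 7.16 to 9.34 in shPC tumors and 9.17 to 11.45 in scram tumors, and the neutrophil markers (7 of 8 measured, all 7 lower) at 7.66 to 9.62 in shPC tumors and 9.21 to 11.87 in scram tumors, and both of these ranges overlapped. The T cell (6.33 to 8.95 in shPC tumors and 6.48 to 7.83 in scram tumors), endothelial (8.29 to 9.97 in shPC tumors and 8.70 to 9.27 in scram tumors) and white adipocyte lists (4.84 to 5.57 in shPC tumors and 4.73 to 5.90 in scram tumors) overlapped as well. The B cell and lymph node markers (7 of 8 measured) read 8.18 in shPC28 replicate 4 and between 3.59 and 4.06 in the other 10 tumors. The skeletal muscle markers, of a tissue rich in these enzymes, stood at 4.28 to 4.66 in shPC tumors and 4.47 to 5.27 in scram tumors, and 5 of the 10 were at or below the olfactory receptor guide level. The part of these cell types in the values of Idh3a and of the other members was not tested.

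The remaining members are given in the order of the cycle. Cs read 15.60, 15.21 and 15.33 in shPC25 tumors and 15.47, 15.50, 15.49 and 15.36 in shPC28 tumors, against 15.43, 15.48, 15.31 and 15.37 in scram tumors. The ranges lay over one another, with a difference of 0.02 ± 0.11 (adjusted p = 0.979).

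Idh2 differed in its spread more than in its level. It read 12.82, 11.69 and 12.37 in shPC25 tumors and 12.00, 11.56, 12.45 and 11.46 in shPC28 tumors, against 11.75, 11.86, 11.94 and 11.86 in scram tumors. Thus 4 shPC tumors lay above all scram tumors and 3 below them. The SD was 0.57 in shPC25 tumors (n = 3) and 0.45 in shPC28 tumors (n = 4), against 0.08 in scram tumors (n = 4), and the spread was not tested. The difference in level was 0.23 ± 0.23 (adjusted p = 0.827). Against its cytosolic counterpart Idh1, Idh2 differed by 0.39 within tumors, with an exact permutation p of 0.206. Single tumors moved both values: the difference in level was 0.10 without shPC25 replicate 1 and 0.38 without shPC25 replicate 2, and that against Idh1 ran from 0.22 (scram replicate 2 left out) to 0.65 (scram replicate 4 left out).

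Ogdh read 13.69, 13.34 and 13.36 in shPC25 tumors and 13.58, 13.55, 13.54 and 13.70 in shPC28 tumors, against 13.60, 13.83, 13.61 and 13.65 in scram tumors. Of the shPC tumors 5 lay below all scram tumors, and the difference was -0.14 ± 0.12 (adjusted p = 0.768).

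Suclg1 read 13.44, 13.44 and 13.36 in shPC25 tumors and 13.31, 13.07, 13.24 and 13.05 in shPC28 tumors, against 13.06, 13.04, 12.93 and 13.19 in scram tumors. All 3 shPC25 tumors lay above all scram tumors, as in 1 of 9 members and 4.16% of all probe sets, while the shPC28 tumors overlapped with scram. The difference was 0.36 ± 0.13 for shPC25 (adjusted p = 0.496) and 0.11 ± 0.12 for shPC28 (adjusted p = 0.904). Over both groups it was 0.24 ± 0.11 (adjusted p = 0.561). The exact permutation test gave 0.22 with p = 0.0424 over all shPC tumors, p = 0.0286 for shPC25 and p = 0.20 for shPC28, none of them adjusted.

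Sucla2, close to background, read 5.35, 4.93 and 4.54 in shPC25 tumors and 4.54, 4.80, 4.41 and 4.30 in shPC28 tumors, against 4.71, 4.79, 4.21 and 4.49 in scram tumors. The groups overlapped, with a difference of 0.18 ± 0.18 (adjusted p = 0.827). Against Suclg2, the beta subunit with which it competes for Suclg1, Sucla2 differed by 0.28 within tumors (exact permutation p = 0.288). With each tumor left out in turn, these values ran from 0.06 to 0.28 and from 0.15 to 0.40, both lowest without scram replicate 3.

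Fh1, fumarate hydratase, read 12.04, 11.86 and 12.19 in shPC25 tumors and 11.70, 11.44, 11.75 and 11.65 in shPC28 tumors, against 11.69, 11.90, 11.82 and 11.72 in scram tumors. The shPC25 and scram tumors overlapped, as did the shPC28 and scram tumors, and the difference over both groups was 0.05 ± 0.12 (adjusted p = 0.939).

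Mdh2, the matrix malate dehydrogenase, read 15.12, 14.93 and 15.04 in shPC25 tumors and 15.13, 15.06, 15.24 and 15.36 in shPC28 tumors, against 15.17, 15.21, 14.86 and 15.23 in scram tumors. The difference was 0.00 ± 0.12 (adjusted p = 0.997), and against the cytosolic Mdh1 within tumors it was -0.01 (exact permutation p = 0.967).

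Between the shRNAs, shPC28 minus shPC25, limma called 0 of 9 members (0% of all probe sets), and 1 of 9 had an unadjusted p under 0.05 (4.61%). All shPC28 tumors lay below all shPC25 tumors for Fh1 and Suclg1, as for 2 of 9 members and 2.68% of all probe sets, and they lay above for 0 of 9 members and 2.31%. The differences were -0.40 ± 0.14 for Fh1 and -0.25 ± 0.13 for Suclg1, each with an adjusted p of 0.993. For Idh3a, shPC28 tumors were 0.30 ± 0.18 above shPC25 tumors (adjusted p = 0.993), and the groups overlapped.

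Across tumors the members were correlated in pairs, and no such values over pairs of other genes are given for comparison. Among the 36 pairs of members, Pearson's r over the 11 tumors was above 0 for 21 pairs and below 0 for 15, with a median of 0.06. With group means removed, 29 pairs were above 0 and the median was 0.24. The lowest r was that of Idh3a with Suclg1 (r = -0.77, rho = -0.78, -0.34 with group means removed, and -0.62 without the 2 tumors farthest from the median of the first gene). The highest was that of Idh2 with Fh1 (r = 0.68, rho = 0.65, 0.62 with group means removed, and 0.79 without 2 such tumors). Idh3a and Idh3b had r = 0.52, rho = 0.32 and 0.79 with group means removed, but -0.42 without 2 such tumors, so the sign of this value rested on them. These values describe 11 arrays that share their scaling and cell mixture.

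Around the cycle, transcripts of the other cycle subunits and of pyruvate entry were examined as lists drawn up with earlier results of these data known. Of the other cycle subunits, 9 of 10 were measured, 0 passed the adjusted threshold of limma (0.0135% of all probe sets), and 6 were lower and 3 higher, with a median of -0.07. Of the pyruvate entry genes, 11 of 12 were measured, 0 passed, 6 were lower and 5 higher, and the median was -0.05. Of the anaplerosis and exit genes, which include Pcx, 11 of 13 were measured, 0 passed, 6 were lower and 5 higher, and the median was -0.02. The cytosolic counterparts (5 measured), the mitochondrial carriers (6 measured) and the regulators of mitochondrial transcription (5 of 6 measured) had medians of -0.02, 0.01 and 0.10 with 0 passed in each. All are set beside the median of 0.02 over all probe sets.

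**Figure D5:**
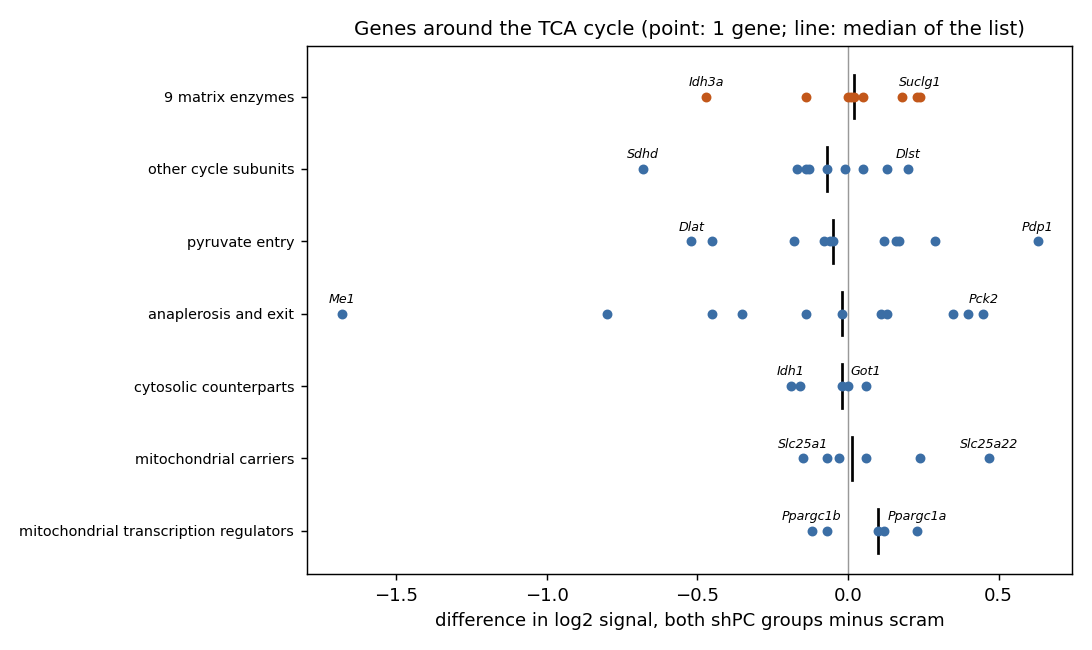
Difference in log2 signal, both shPC groups minus scram, for each measured gene of the 9 members and of the lists around the cycle; points are genes and vertical lines are list medians. The list medians lie between -0.07 and 0.10, and Me1 lies at -1.68 and Sdhd at -0.68, while Pcx, at -0.80, and Ppargc1a have mean signals below the olfactory receptor guide level, where a difference is not well measured.

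Sdhd, a membrane anchor subunit of succinate dehydrogenase, read 13.59, 12.87 and 13.94 in shPC25 tumors and 13.54, 13.85, 13.73 and 13.50 in shPC28 tumors, against 14.10, 14.07, 14.80 and 13.98 in scram tumors. Every shPC tumor lay below every scram tumor, as in 0.703% of all probe sets (-0.68 ± 0.22, limma adjusted p = 0.359). Sdhd was named because it had the smallest p among the 9 measured genes of its list. Sdha, its flavoprotein partner, differed by -0.17 ± 0.12, and Dlst, the succinyltransferase that works with Ogdh, by 0.20 ± 0.14. Dlat, the acetyltransferase of the pyruvate dehydrogenase complex, differed by -0.52 ± 0.20 (adjusted p = 0.48), with overlapping groups. Sdhd and Dlat lie 23 and 20 expressed genes before Idh3a on chromosome 9, inside the stretch described above, and Dlat is among the 40 Idh3a neighbours. The medians of their own 40 neighbours were -0.36 and -0.39. These windows share genes with that of Idh3a, so they are not separate evidence.

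Mpc1, a subunit of the mitochondrial pyruvate carrier, read 13.52, 13.07 and 13.55 in shPC25 tumors and 13.55, 13.18, 13.44 and 13.38 in shPC28 tumors, against 13.89, 13.81, 13.97 and 13.65 in scram tumors. Every shPC tumor lay below every scram tumor, as in 0.703% of all probe sets (-0.45 ± 0.14, limma adjusted p = 0.328). Mpc1 was named because it had the smallest p among the 11 measured genes of its list. Mpc1 lies on chromosome 17, where its 40 neighbours had a median of -0.04. Pdp1, the phosphatase that activates pyruvate dehydrogenase, differed by 0.63 ± 0.26 (adjusted p = 0.514).

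Among the genes that feed or drain the cycle, Me1, the cytosolic malic enzyme, differed by -1.68 ± 0.58 (adjusted p = 0.396), Pcx, below the olfactory receptor guide level, by -0.80 ± 0.27 (adjusted p = 0.388) and Pcca, of propionyl-CoA carboxylase, by 0.35 ± 0.14 (adjusted p = 0.487). The cytosolic enzymes Aco1, Idh1 and Got1 differed by -0.16, -0.19 and 0.06, and the carriers Slc25a22, Slc25a12 and Slc25a1 by 0.47, 0.24 and -0.15. The regulators Gabpa and Tfam differed by 0.10 and 0.12, and Ppargc1a, at a mean of 3.33, lay below the olfactory receptor guide level and is given no difference. In all of these the shPC and scram tumors overlapped, and none passed the threshold.

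The 250 bases before the first listed RefSeq start were at hand for 8 of the 9 members, Idh3a not among them. They were searched on both strands for motifs of general promoter factors and of known regulators of mitochondrial genes. Ogdh has 6 listed starts, and its hits rest on the first of them, while the shares over all windows count every listed start. The GC box GGGCGG was found in 5 of 8 (Cs, Idh2, Sucla2, Fh1 and Mdh2), against 32.7% of 32851 RefSeq windows of the same length, and the CCAAT box in 5 of 8 (Cs, Idh2, Idh3b, Ogdh and Fh1), against 33.8%. The cores CCGGAAG (ETS factors, 6.91% of all windows), TGCGCA (NRF1, 6.43%) and AAGGTCA (estrogen-related receptors, 4.08%) were found in 0 of 8, and the hypoxia core ACGTG in 1 of 8 (Ogdh), against 16.6%. None of these motifs contains another. The 3 members that hold both boxes are shown, so that their windows can be read beside their values: Cs overlapped closely between groups, Idh2 spread widely in shPC tumors, and Fh1 did not overlap between shPC28 and shPC25 tumors. Capitals mark the GC box and the CCAAT box on either strand, and the coordinates are those of the RefSeq table (build GRCm38.p6).
Cs, chr10:128337477-128337726, plus strand: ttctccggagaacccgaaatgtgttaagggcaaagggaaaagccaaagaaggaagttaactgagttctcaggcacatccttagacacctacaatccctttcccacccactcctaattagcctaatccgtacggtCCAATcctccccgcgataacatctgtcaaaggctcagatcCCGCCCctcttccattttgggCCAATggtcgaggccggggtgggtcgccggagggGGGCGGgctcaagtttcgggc
Idh2, chr7:80115351-80115600, minus strand: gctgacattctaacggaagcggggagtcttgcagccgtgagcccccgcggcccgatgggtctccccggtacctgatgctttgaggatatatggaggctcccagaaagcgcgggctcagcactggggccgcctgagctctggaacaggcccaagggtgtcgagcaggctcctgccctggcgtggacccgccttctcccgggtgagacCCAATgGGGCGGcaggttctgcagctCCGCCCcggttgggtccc
Fh1, chr1:175625636-175625885, minus strand: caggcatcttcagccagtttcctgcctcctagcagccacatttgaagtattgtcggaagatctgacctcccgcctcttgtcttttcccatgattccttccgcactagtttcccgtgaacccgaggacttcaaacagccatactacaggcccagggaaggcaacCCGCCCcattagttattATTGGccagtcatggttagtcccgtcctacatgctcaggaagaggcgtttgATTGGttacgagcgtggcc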

How the data were processed

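RNA from 11 whole E0771 tumors was labelled with a whole-transcript kit and hybridised to mouse Clariom S arrays by the authors. The deposited values are log2 signals, 1 column per tumor, exported by the authors from the array vendor's console, and how they were summarised and normalised is not given in the sources used here. They were used as deposited. Groups and replicate numbers came from the sample labels. No scan date or hybridisation batch is labelled, so no batch was examined. Gene names came from the platform annotation: 19572 probe sets had 1 symbol, 0 several and 2634 none. A gene with several probe sets was represented by the brightest.

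The main test was limma 3.58.1 (R 4.3.3), with 1 mean per group over all 11 tumors, empirical Bayes moderation and Benjamini-Hochberg adjustment over 22206 probe sets at a threshold of 0.05. Both shPC groups were compared with scram as the mean of the shPC25 and shPC28 means minus the scram mean. Single values and within-tumor differences were tested with exact permutations of the tumors (two-sided). The limma step was tested on simulated data. Expressed genes for the neighbour windows were those above the median of all probe sets, ordered by their RefSeq start positions (GRCm38.p6). Distances in bases were not used. The members, lists and named genes were chosen with earlier results of these data known. Genes named around the cycle were, from each list, Pcx and up to 3 genes of smallest p, and those named beside Idh3a were picked after their values were seen. Alternatives covered scaling, filters, variance prior, array weights, the groups in the fit, a pooled-variance t-test, a block on replicate number and leaving out tumors. The number of arrays limits the precision.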

Additional observations from a re-analysis of the deposited data

Results flagged for a closer look

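Of 32 groups of 4 tumors examined over the members and gene pairs, 2 held a value far from the others, where chance gives about 1 in 20. Mdh2 in scram replicate 3 was 14.86, against 15.17 to 15.23 in the other scram tumors. Sucla2 minus Suclg1 in shPC28 replicate 2 was -8.27, against -8.83 to -8.75 in the other shPC28 tumors, with Sucla2 close to background. For Fh1 the shRNAs differed in sign: all 3 shPC25 tumors lay above the scram mean and all 4 shPC28 tumors below it, and shPC28 minus shPC25 was -0.40, with an exact permutation p of 0.0286 and an adjusted p of 0.993 by limma.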

How the results depend on the processing

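The count of members past the adjusted threshold was 0 under every alternative run. Idh3a over both shPC groups ran from -0.48 to -0.38 with all tumors kept (adjusted p 0.17 to 0.439) and from -0.58 to -0.37 with each tumor left out in turn (0.212 to 0.586). Every member is represented by 1 probe set, so averaging probe sets gave no other value, and Sucla2 had no value once probe sets below the median were left out. Small differences changed sign: for shPC25 minus scram, Cs was 0.01 after quantile normalization and 0.11 after median centring, Idh3b 0.09 after centring and 0.04 with array weights, and Mdh2 0.04 after centring, while Sucla2 in shPC28 minus scram was 0.03 after centring. Centring moved the median difference of all probe sets by 0.0948 for both shPC groups and by 0.123 for shPC25. Same-numbered tumors correlated at -0.28 to 0.28 in their deviations from group means (2 of 10 pairs above 0.1). Differently numbered tumors correlated at -0.24 to 0.27 (9 of 30 pairs above 0.1), so the replicate numbers gave no sign of pairing. With the replicate block, fitted by limma on the 7 gene pairs and so by another test, both shPC minus scram was 0.33 for Sucla2 minus Suclg2 (adjusted p = 0.0404), 0.46 for Idh2 minus Idh1 (0.0125) and 0.03 for Mdh2 minus Mdh1. For shPC25 the block gave -0.60 for Idh3a minus Idh3b (0.00224), -0.66 for Idh3a minus Idh3g (0.00204), 0.61 for Sucla2 minus Suclg2 (0.00224), 0.73 for Idh2 minus Idh1 (0.00204) and -0.02 for Sucla2 minus Suclg1. The permutation test used elsewhere cannot give shPC25 an unadjusted p below 0.0286. No limma fit of these pairs without the block is given, so the block and the change of test cannot be told apart. Without scram replicate 4 and shPC28 replicate 4, chosen after seeing the data, Idh3a minus Idh3b was -0.46 and Idh3a minus Idh3g -0.58 (adjusted p = 0.0556 each, permutation). With the same tumors left out, Idh2 minus Idh1 was 0.72, also without overlap of shPC and scram values (exact permutation p = 0.0238, adjusted p = 0.0556). Mdh2 minus Mdh1 was then 0.04, Idh3b minus Idh3g -0.12, Sucla2 minus Suclg1 in shPC25 -0.03, Idh3b over both groups -0.02 and Sucla2 in shPC28 0.01. Leaving out each tumor in turn, both shPC minus scram ranged from -0.50 to -0.42 for Idh3a minus Idh3b (adjusted p 0.0167 to 0.0583), -0.55 to -0.43 for Idh3a minus Idh3g (0.0167 to 0.117), -0.10 to 0.06 for Idh3b minus Idh3g, -0.08 to 0.06 for Mdh2 minus Mdh1, -0.15 to 0.01 for Sucla2 minus Suclg1, -0.04 to 0.06 for Cs and -0.04 to 0.08 for Idh3b. For shPC25 the ranges were -0.13 to 0.07 for Cs, -0.11 to 0.09 for Idh3b, -0.11 to 0.06 for Idh3b minus Idh3g, -0.14 to 0.09 for Mdh2 minus Mdh1 and -0.16 to 0.21 for Sucla2 minus Suclg1. For shPC28 they were -0.18 to 0.15 for Idh2, -0.01 to 0.13 for Mdh2, -0.15 to 0.04 for Sucla2, -0.10 to 0.07 for Idh3b minus Idh3g, -0.10 to 0.05 for Mdh2 minus Mdh1 and -0.17 to 0.19 for Sucla2 minus Suclg2. For shPC28 minus shPC25 they were -0.01 to 0.19 for Cs and -0.04 to 0.15 for Idh3b. The causes of these changes were not tested. Of all probe sets, 3 passed the threshold over both shPC groups as deposited and after centring, and 0 after quantile normalization.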

Other observations

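After each of the 9 members was centred and scaled over the tumors and averaged, 9818 bright genes were ranked by Pearson's r with that mean over the 11 tumors, as a description. The 5 highest were Cenph, a kinetochore protein (r = 0.943), AY358078 (r = 0.923), Gps1, a subunit of the COP9 signalosome (r = 0.912), Pemt, which makes phosphatidylcholine (r = 0.888), and Alg13, of N-linked glycosylation (r = 0.875). Among the 11 tumors, Cenph was highest in shPC25 replicate 1 (10.36) and lowest in shPC25 replicate 2 (9.34). The points share their array scaling and cell mixture.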
